A study of Mus musculus with 60 samples.

Results

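This account concerns 49 mouse genes of DNA replication and S phase, read in mammary tissue of ovariectomized mice that had been given estrogen, progesterone, both or neither. The genes were taken by name: a probe set, a group of short array probes read as one value, belonged to a gene when the platform annotation gave it that 1 symbol. All 49 genes had at least 1 such probe set, out of 15964 genes named in this way on the arrays, and they held 89 of 36701 non-control probe sets. This rule of matching used no measured value. The list of genes itself was chosen with earlier results of these data known. Its counts beside all probe sets are therefore descriptions and no test of the list. They were ordered by role: origin licensing (Orc1, Orc2, Orc6, Cdc6, Cdt1, Gmnn), the replicative helicase and its activation (Mcm2 to Mcm7, Mcm10, Cdc45, Gins1, Cdc7), primase and polymerases (Prim1, Prim2, Pola1, Pola2, Pold1, Pold2, Pole, Pole2), the sliding clamp and its loader (Pcna, Rfc1 to Rfc5), the single-strand binding protein (Rpa1, Rpa2, Rpa3), lagging strand maturation (Fen1, Lig1), nucleotide supply and uracil removal (Tk1, Rrm1, Rrm2, Tyms, Dut, Ung), copying of chromatin and histone mRNA processing (Uhrf1, Dnmt1, Chaf1a, Chaf1b, Slbp), and entry into S phase (E2f1, Ccne1, Ccne2).

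All 20 animals had been ovariectomized, so that the ovary's own steroids were lacking in every group, and each received 4 daily intraperitoneal injections. The E+P group (5 animals) received 2 µg of 17-beta-estrogen and 1 mg of progesterone, the E group (4 animals) the estrogen, the P group (4 animals) the progesterone, and the V group (4 animals) 100 µl of sesame oil. The E+P CFP group held fat pads free of epithelium from 3 animals given E+P, and was included to tell the response of the stroma apart. Whether those 3 were the same animals as some of the E+P group is not stated. They were counted here as separate animals, and the total of 20 rests on that choice. The glands were freed of lymph nodes when collected. The sources used here give neither strain nor age. The titles call the animals of a group biologic replicates. The description field of the V samples names progesterone, but the titles, which were followed for grouping, and the protocols and design text name sesame oil.

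DNA replication starts where the origin recognition complex, Cdc6 and Cdt1 load the ring of Mcm2 to Mcm7 onto DNA, which is activated as a helicase when the cell enters S phase. Polymerases, the Pcna clamp, the Rfc clamp loader and the ligase then copy both strands, while ribonucleotide reductase and thymidine kinase supply the building blocks and Chaf1, Uhrf1 and Dnmt1 carry nucleosomes and DNA methylation over to the new strands. Many of these genes are transcribed under E2F factors at the border of G1 and S phase, and in the adult mouse mammary gland estrogen and progesterone are known to drive the division of epithelial cells.

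The RNA of each animal was read on 3 Affymetrix array types as MAS5 signal, in arbitrary units of brightness. The number of arrays limits the precision, and no read depth applies. Signals are given below after scaling each array to a common trimmed mean, in the order of the animals' numbers within a group. Differences are on the log2 scale after values below a floor were raised to it (13.6 signal units on array type A, which read 46 of the 49 genes), and where animals of the dimmer group lay under the floor the true difference may be larger than the one given. In 34 genes the probe set standing for the gene was bright enough to be tested, among 23067 probe sets tested in all. In the other 15 (Orc1, Orc2, Gmnn, Mcm6, Mcm10, Gins1, Cdc7, Prim1, Prim2, Pole2, Rfc4, Tyms, Dut, E2f1 and Ccne2) it was too dim, and only a difference is given.

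The labelled tissues were set against their defining markers. The summed signal of 15 luminal epithelial markers was 5836 to 9015 in E+P glands, 4781 to 9248 in E glands, 4291 to 4778 in P glands, 247 to 299.6 in E+P CFP fat pads and 4289 to 5787 in V glands. In the fat pads 8 of the 15, among them Krt8, Krt19 and Epcam, lay at the floor in all 3 animals, as the label of epithelium-free tissue has it. Of the 9 basal markers, Krt5 and Krt14 lay at the floor in all 3 fat pads, but Krt5 did so in every E+P, P and V gland as well. The basal markers summed to 2323 to 3113 in E+P glands, 2026 to 2722 in E glands and 1801 to 2327 in P glands. Their sum was 1149 to 1520 in E+P CFP fat pads and 1681 to 3288 in V glands, so basal marker signal was lower but not absent in the fat pads. The 19 lymphocyte and plasma cell markers summed to 812 to 4379 in E+P glands, 3711 to 11833 in E glands, 799 to 5284 in P glands, 2853 to 3924 in E+P CFP fat pads and 711 to 6347 in V glands, with V 4 far above the other V animals. Skeletal muscle markers summed to 1178 to 2304 in E+P glands, 7148 to 11781 in E+P CFP fat pads and 1439 to 3158 in V glands, and reached 6535 in E 1. In whole tissue, fewer cells of a type and less RNA per cell cannot be told apart.

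Both hormones together gave higher replication gene signals than vehicle. The nucleotide enzymes Tk1 and Rrm2, the chromatin factor Uhrf1 and the helicase subunit Mcm4 passed the threshold, Mcm4 narrowly. In E+P glands against V glands, 4 of the 34 tested genes rose and none fell past an adjusted p of 0.05 (limma with Benjamini-Hochberg adjustment over all tested probe sets), where 0.251% of all probe sets rose and 0.464% moved in either direction. The 4 were Tk1 (log2 difference 2.43 ± 0.51, SE, adjusted p = 0.0349), Rrm2 (2.30 ± 0.49, adjusted p = 0.0397), Uhrf1 (1.82 ± 0.34, adjusted p = 0.0154) and Mcm4 (0.98 ± 0.22, adjusted p = 0.0499). Every E+P animal lay above every V animal in 13 of the 34 genes (Cdt1, Mcm2, Mcm3, Mcm4, Mcm5, Mcm7, Pola1, Rpa1, Fen1, Tk1, Rrm2, Uhrf1 and Chaf1a), against 2.46% of all tested probe sets. At an unadjusted p under 0.05, 22 of the 34 were higher and none was lower, against 10.7% of all tested probe sets in either direction. Over all 49 genes the median difference was 0.55, with 43 above 0, 5 below and 1 at 0, where the median over all probe sets was 0.0. The genes nearest below the threshold by representative probe set were Mcm5 (1.53 ± 0.35, adjusted p = 0.0567), Chaf1a (1.85 ± 0.46, adjusted p = 0.0826) and Mcm7 (1.02 ± 0.27, adjusted p = 0.112). Other tested probe sets of Mcm3 (0.77, adjusted p = 0.0826) and Cdt1 (0.98, adjusted p = 0.0859) lay nearer to it than that of Mcm7. The count of 4 rested on single animals: it was 0 without E+P 2 or V 3, 1 without E+P 1, E+P 3 or E+P 5, 2 without E 3, E 4, P 1, V 1 or V 2, and 5 without V 4. The median difference was 0.27 without E+P 2. Of all tested probe sets 58 rose and 49 fell, against 47 and 73 with arrays scaled to a common median, where 3 members (Rrm2, Tk1 and Uhrf1) rose and none fell. Tissue makeup moved with this contrast as well: the luminal sum was 5836 to 9015 in E+P glands against 4289 to 5787 in V glands. The mean centred log2 signal of the luminal markers was 0.55 to 1.19 in E+P glands against 0.19 to 0.54 in V glands, with no overlap. The adipocyte sum was 29284 to 39893 (median 36867) in E+P glands against 37288 to 46675 (median 45270) in V glands, and the part of these in the result was not tested.

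**Figure D1:**
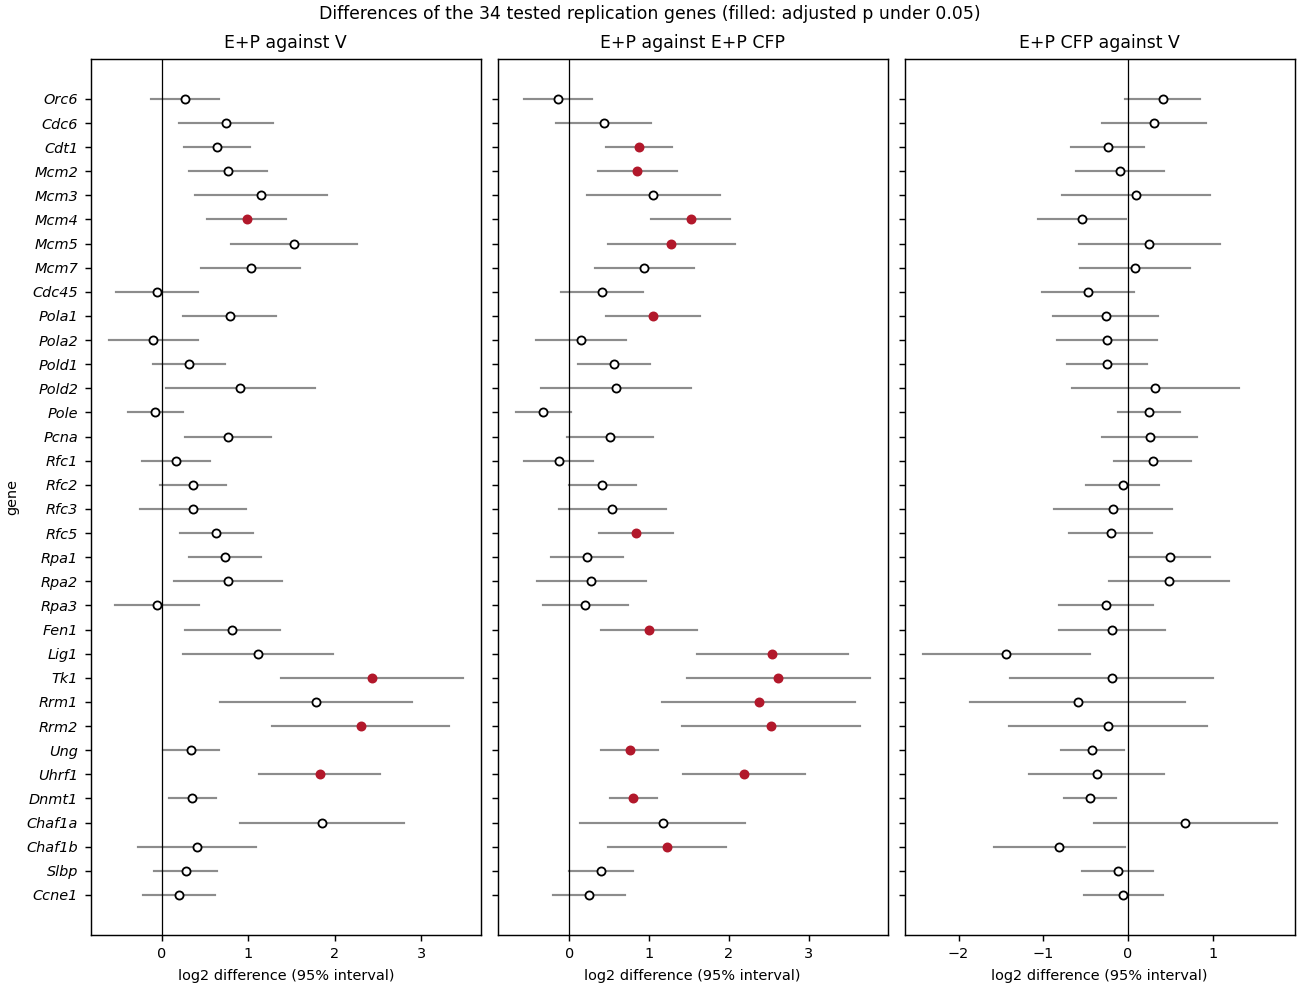
Log2 differences (x axis, dots) with 95% intervals (lines) of the 34 tested replication genes (y axis, grouped by role), from left to right in E+P glands against V glands, in E+P glands against E+P CFP fat pads and in E+P CFP fat pads against V glands. Filled dots passed an adjusted p of 0.05: 4 in the left panel, 15 in the middle and none on the right, all of them right of 0.

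The start regions of the 3 genes with the largest called differences between E+P and V glands are shown since many genes of replication are known to carry E2F sites near their start. The windows run from 250 bases before to 50 bases after a transcript start and come from RefSeq (GRCm38.p6), 5′ to 3′ on the gene's strand. Capitals mark 2 kinds of words found on either strand: the E2F words TTTCCCGC, TTTGGCGC, TTTCGCGC and TTTGCCGC, which can overlap one another, and the CCAAT box, CCAAT. The Tk1 window is chr11:117825965-117826264 (minus strand), the Rrm2 window chr12:24708004-24708303 (plus strand) and the Uhrf1 window, one of 2 for this gene, chr17:56304063-56304362 (plus strand). Where a gene had several windows, the one with the most E2F words was printed. The other Uhrf1 window, chr17:56303087-56303386, held CCAAT boxes but no E2F word.
Tk1: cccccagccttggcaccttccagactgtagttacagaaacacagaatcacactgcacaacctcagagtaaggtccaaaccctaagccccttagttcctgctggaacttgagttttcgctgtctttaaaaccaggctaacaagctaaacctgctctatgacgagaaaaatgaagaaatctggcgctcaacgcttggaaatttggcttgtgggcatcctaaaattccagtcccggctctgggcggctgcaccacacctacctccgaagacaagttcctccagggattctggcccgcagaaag
Rrm2: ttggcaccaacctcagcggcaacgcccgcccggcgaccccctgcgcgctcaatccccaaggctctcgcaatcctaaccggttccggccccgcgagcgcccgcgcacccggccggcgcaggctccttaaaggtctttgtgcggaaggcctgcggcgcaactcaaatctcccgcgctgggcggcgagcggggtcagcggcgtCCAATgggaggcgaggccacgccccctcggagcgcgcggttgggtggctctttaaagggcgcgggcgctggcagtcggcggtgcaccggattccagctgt
Uhrf1: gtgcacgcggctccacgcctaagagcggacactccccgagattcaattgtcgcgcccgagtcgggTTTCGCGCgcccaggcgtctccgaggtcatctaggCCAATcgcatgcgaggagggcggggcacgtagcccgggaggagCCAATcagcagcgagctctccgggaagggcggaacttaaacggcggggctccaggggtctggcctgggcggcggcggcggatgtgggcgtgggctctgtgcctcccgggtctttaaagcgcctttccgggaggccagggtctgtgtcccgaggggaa
The Uhrf1 window held 1 E2F word, at bases -185 to -178 from the start, and 2 CCAAT boxes, the nearer at -107 to -103. The Rrm2 window held 1 CCAAT box at -50 to -46 and none of the 4 E2F words, and the Tk1 window held neither. A gene was matched to the window table by symbol, and 42 of the 49 had a window; Gmnn, Mcm4, Gins1, Prim2, Pole, Rfc2 and Ccne2 did not. An E2F word stood in a window of 14 of the 42 genes (33.3%) and of 704 of the 27025 genes in the table (2.60%). The CCAAT box stood in 25 of the 42 (59.5%) and in 41.1% of the genes in the table. These are matches of letters in a window and were not measured as sites.

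Intact glands given both hormones had higher signals of replication genes than the epithelium-free fat pads of animals given the same hormones. In E+P glands against E+P CFP fat pads, 15 of the 34 tested genes rose and none fell, where 5.24% of all tested probe sets rose and 7.9% moved in either direction. They spanned 7 of the 9 roles, from Mcm4 (log2 difference 1.52 ± 0.24, adjusted p = 0.000229), Uhrf1 (2.19 ± 0.37, adjusted p = 0.000483) and Dnmt1 (0.80 ± 0.14, adjusted p = 0.000780) to Chaf1b (1.22 ± 0.36, adjusted p = 0.0376) and Mcm5 (1.28 ± 0.38, adjusted p = 0.0429). Single-strand binding and S phase entry were the roles with no call. The groups did not overlap for 19 genes with E+P above, against 8.43% of all tested probe sets, and for 1, Pole, with E+P below, against 6.41%. At an unadjusted p under 0.05, 19 were higher and none lower, against 20.1% of all tested probe sets. Over all 49 genes the median difference was 0.56, with 44 above 0, 4 below and 1 at 0, against 0.0 over all probe sets. The count was 9 without E+P 2, 9 without E+P CFP 1 and 10 without E+P CFP 2 or E+P CFP 3. With arrays scaled to a common median it was 8 (Mcm4, Uhrf1, Dnmt1, Lig1, Tk1, Rrm2, Cdt1 and Rrm1), all higher in E+P glands, and the median difference over the 49 genes was 0.40, where the median of all tested probe sets moved to -0.12. Of all tested probe sets 1209 rose and 614 fell, against 827 and 1226 under that scaling. A sign of RNA quality, the log2 ratio of 3′ to 5′ Gapdh signal on array type A, was 0.57 to 1.46 in E+P glands. In the fat pads it was 0.33 to 2.13, with E+P CFP 1 the highest of all 20 animals, and its part was not tested further. Tissue makeup moved with this contrast: the luminal sum was 5836 to 9015 in E+P glands against 247 to 299.6 in the fat pads, the adipocyte sum 29284 to 39893 against 50617 to 56126, and the skeletal muscle sum 1178 to 2304 against 7148 to 11781. The part of these in the result was not tested, and the adjusted p-values treat the fat pads as coming from animals outside the E+P group, which the labels leave unstated.

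The fat pads given both hormones and the glands given vehicle did not differ past the threshold in any of the 34 genes, where 3.09% of all tested probe sets did (limma). At an unadjusted p under 0.05, 1 gene was higher and 5 were lower in E+P CFP fat pads, against 14.1% of all tested probe sets in either direction. The count was 1 without E+P CFP 2, where Lig1 was lower. The median difference over the 49 genes was -0.09. The smallest adjusted p belonged to Dnmt1 (-0.45 ± 0.15, adjusted p = 0.118), whose 3 fat pads all lay below the V glands (7.38% of all tested probe sets did so), and to Lig1 (-1.44 ± 0.47, adjusted p = 0.126). Pole and Rpa1 lay above the V glands in all 3 fat pads, against 5.59% of all tested probe sets. Hormones and tissue both differ in this contrast and cannot be told apart in it. The luminal sum was 247 to 299.6 in the fat pads against 4289 to 5787 in V glands. The skeletal muscle sum was 7148 to 11781 against 1439 to 3158 and the adipocyte sum 50617 to 56126 against 37288 to 46675. The part of these in the result was not tested. The comparisons with the fat pads and with V glands share the E+P CFP or the V animals, so they are not independent of one another.

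Stretches around the E2F word are shown for the genes called between E+P glands and E+P CFP fat pads that had one in a RefSeq window (GRCm38.p6), so that the letters can be compared. Of the 15 called genes, 14 had a window and 6 an E2F word in at least 1 window. Dnmt1 and Lig1 had 3 windows each and Uhrf1 had 2, with E2F words in 1 of them for each gene. The word is in capitals, read 5′ to 3′ on the gene's strand, and where the word lies on the opposite strand its reverse complement is seen. The positions are chr8:122568036-122568064 (Cdt1, plus strand), chr9:20952824-20952853 (Dnmt1, minus strand), chr7:13278841-13278870 (Lig1, plus strand), chr8:75109345-75109374 (Mcm5, plus strand), chrX:93632275-93632304 (Pola1, minus strand) and chr17:56304117-56304146 (Uhrf1, plus strand).
Cdt1: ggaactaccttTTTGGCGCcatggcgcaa
Dnmt1: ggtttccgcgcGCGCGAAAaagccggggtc
Lig1: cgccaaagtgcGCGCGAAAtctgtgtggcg
Mcm5: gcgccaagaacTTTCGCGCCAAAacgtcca
Pola1: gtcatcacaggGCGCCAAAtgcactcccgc
Uhrf1: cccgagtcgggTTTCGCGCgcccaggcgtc
In Mcm5 the capitals are 2 overlapping words, TTTCGCGC and the reverse complement of TTTGGCGC. In the stretches shown Dnmt1, Lig1, Mcm5 and Uhrf1 share the word TTTCGCGC, while Cdt1 and Pola1 carry TTTGGCGC. The Dnmt1 window also holds TTTGGCGC at bases 34 to 41 from the start, outside the stretch shown. The start regions of Tk1 and Rrm2, printed above, are among the called ones without an E2F word.

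By the representative probe sets, nucleotide supply was the role with the largest median difference from V glands. Tk1, the thymidine kinase of the salvage pathway in S phase, had a signal of 309.6, 288, 252, 142 and 192 in E+P glands and 29.2, 129.6, 115 and 126 in E glands. Its signal was 29.7, 154, 27.1 and 38.0 in P glands, 22.9, 25.7 and 86.4 in E+P CFP fat pads and 33.2, 35.6, 49.8 and 54.6 in V glands. All 5 E+P animals lay above every V, E and fat pad animal, while P 2 stood above the lowest E+P animal; Tk1 also rose in E+P glands against E+P CFP fat pads (2.62 ± 0.55, adjusted p = 0.00409). Rrm2, the small subunit of ribonucleotide reductase that makes deoxynucleotides, read 129.5, 225, 117, 70.3 and 83.0 in E+P glands and 40.5, 157, 81.8 and 90.7 in E glands. It read 36.7, 42.1, 15.8 and 52.7 in P glands, 9.60, 14.1 and 40.8 in E+P CFP fat pads and 36.8, 43.6, 5.90 and 8.0 in V glands. V 3, V 4 and E+P CFP 1 lay under the floor and were set to it in Rrm2, and the E animals overlapped with the E+P animals. Rrm1, the large subunit of the same enzyme, read 111, 270.1, 142, 45.5 and 122 in E+P glands and 51.6, 77.4, 68.1 and 58.4 in E glands. The Rrm1 signal was 12.7, 33.4, 52.1 and 14 in P glands, 6.90, 9.90 and 64.8 in E+P CFP fat pads and 19.3, 39.8, 28.8 and 64.6 in V glands. E+P 4 lay below V 4 and E+P CFP 3, E+P CFP 1 and E+P CFP 2 lay under the floor, and Rrm1 rose against the fat pads (2.38 ± 0.58, adjusted p = 0.0128) but did not pass against V (1.78 ± 0.53, adjusted p = 0.166). Ung, which removes uracil from DNA, read 179, 219, 144, 162 and 191 in E+P glands and 155, 145, 127 and 139 in E glands. Ung signals were 177, 162, 126 and 163 in P glands, 104, 132 and 84.0 in E+P CFP fat pads and 158, 121, 160.2 and 127 in V glands. Every E+P gland exceeded every fat pad in Ung (0.75 ± 0.17, adjusted p = 0.00707), while E+P and V glands overlapped (0.34 ± 0.16, adjusted p = 0.453). The dim members of this role differed between E+P and V glands by 0.71 (Tyms, thymidylate synthase) and -0.26 (Dut, which breaks down dUTP), with overlapping groups. Over the 6 genes of the role the median difference was 1.24 against V glands and 1.56 against fat pads. These medians rest on the representative probe sets. Other tested probe sets differed from V by 0.81, 0.45, 0.00056 and -0.51 for Tk1 and by -0.35 for Rrm1. Those of Ung differed by -0.03 and 0.33 and that of Dut by 0.43.

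Among the genes that copy chromatin, Uhrf1, which reads hemimethylated DNA and brings Dnmt1 to it, read 176, 206, 138, 143 and 145 in E+P glands and 90.7, 129, 113 and 124 in E glands. Its signal was 34.8, 33.3, 24.0 and 32.1 in P glands, 9.10, 49.9 and 62.3 in E+P CFP fat pads and 38.3, 53.1, 28.9 and 70.1 in V glands. The E+P animals lay above all others, the E animals came next, above every P, fat pad and V animal, and the P animals lay within or below the V range, with E+P CFP 1 under the floor. The E+P signal was 3.54-fold that of V glands and 5.19-fold that of P glands as a ratio of geometric means. Dnmt1, the enzyme that keeps up DNA methylation, read 407, 530.4, 381, 426 and 412 in E+P glands and 376, 452, 361 and 466 in E glands. It read 332, 390.1, 368 and 357 in P glands, 239, 248 and 250.2 in E+P CFP fat pads and 301, 285, 341 and 438 in V glands. The 3 fat pads lay close together below all 17 glands, and the gland groups overlapped, with a difference from V of 0.35 ± 0.13 (adjusted p = 0.298). Chaf1b, a subunit of the chromatin assembly factor, read 61.5, 75.7, 58.5, 48.1 and 58.1 in E+P glands and 31.6, 44.8, 56.1 and 67.4 in E glands. Chaf1b signals were 32.1, 37.4, 32.8 and 29.2 in P glands, 39.6, 31.4 and 7.80 in E+P CFP fat pads and 35.4, 41.5, 36.5 and 77.1 in V glands. V 4 was the highest of all 20 animals, E+P CFP 3 lay under the floor, and Chaf1b rose only against the fat pads among the 8 comparisons, by 1.22 ± 0.36 (adjusted p = 0.0376). Its partner Chaf1a stood higher in every E+P than in every V animal without passing (adjusted p = 0.0826), and Slbp, which binds the stem-loop of histone mRNA, differed by 0.27 from V and 0.40 from the fat pads (adjusted p = 0.249).

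**Figure D2:**
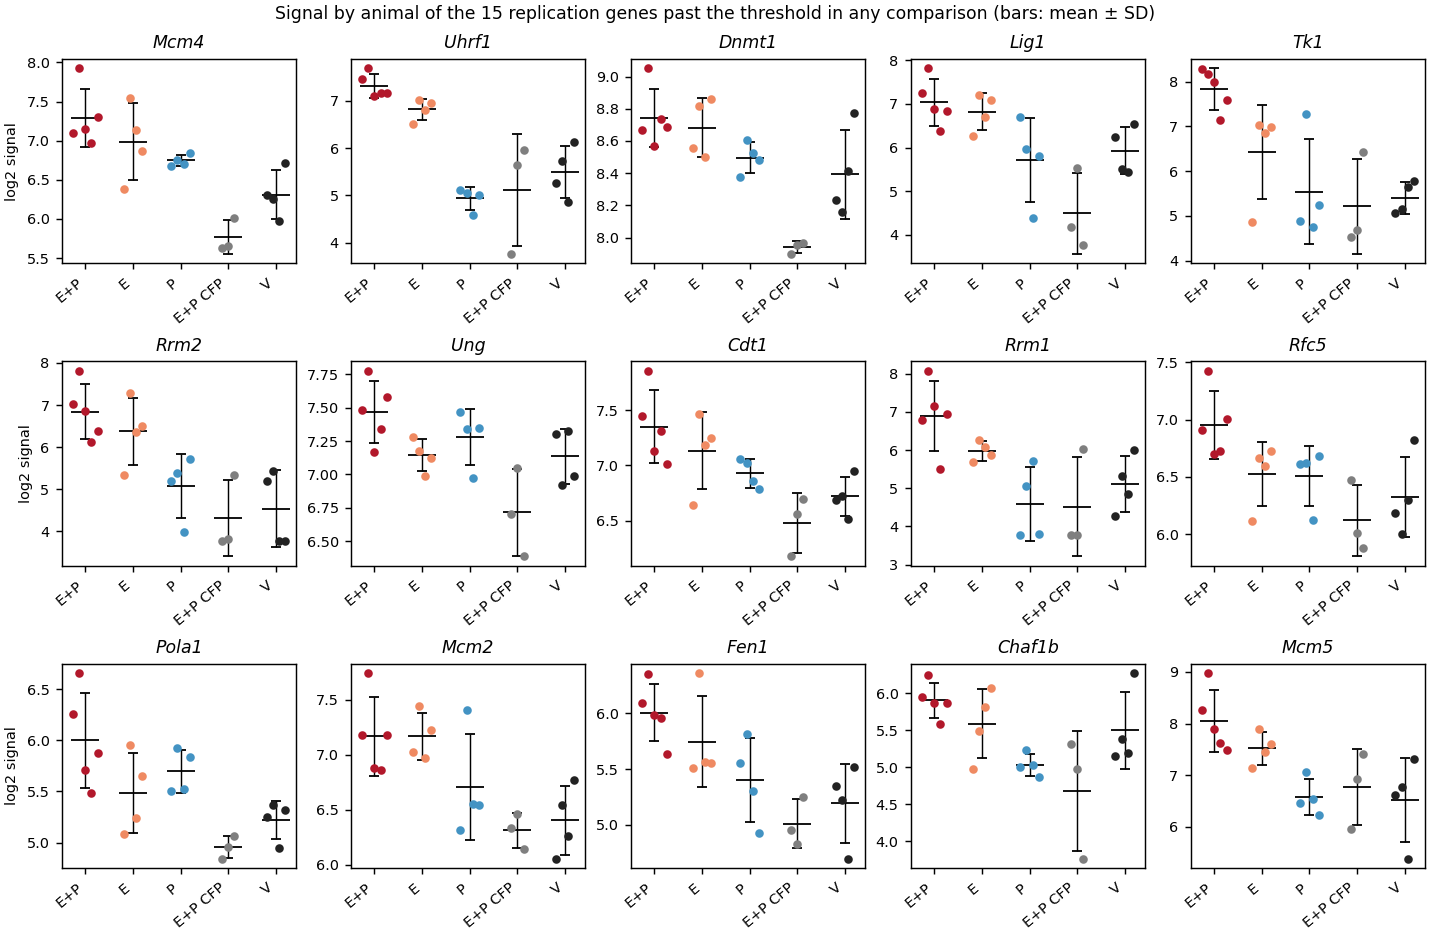
Log2 signal (y axis, values under the floor raised to it) in each animal (points) of the 15 genes past the threshold in any comparison, by group (x axis), with the mean and SD as bars. The Uhrf1 panel shows 5 E+P animals above all others and 4 E animals next, and the Dnmt1 panel shows the 3 E+P CFP fat pads below all glands.

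Of the 6 tested helicase genes 1 rose against V glands and 3 rose against the fat pads, where 0.251% and 5.24% of all tested probe sets rose. Mcm4, a subunit of the ring, read 137, 243, 142, 126 and 158 in E+P glands and 83.2, 188, 141 and 117 in E glands. It read 103, 108, 104 and 115 in P glands, 49.7, 50.4 and 64.8 in E+P CFP fat pads and 79.4, 76.2, 62.7 and 105 in V glands. All E+P animals lay above all P, fat pad and V animals, and the E animals overlapped with the E+P animals. Mcm5 read 307, 504, 239, 197 and 179 in E+P glands and 141, 238, 174 and 193 in E glands. Its signal was 88.1, 134, 93.2 and 75.4 in P glands, 62.5, 122 and 170.0 in E+P CFP fat pads and 97.7, 109.6, 41.7 and 158 in V glands. E+P 2 was the highest and V 3 the lowest of the 20 animals, and the E+P animals did not overlap with V, P or the fat pads. Mcm2 read 145, 214, 118, 116 and 145 in E+P glands and 130.1, 174, 126 and 150.1 in E glands. Mcm2 signals were 79.7, 169.6, 94.2 and 93.5 in P glands, 81.0, 88.0 and 70.6 in E+P CFP fat pads and 66.6, 93.1, 76.7 and 109 in V glands. Both estrogen groups lay above every V animal, and the difference between E+P and E glands in Mcm2 was -0.00037 ± 0.22 (95% interval -0.45 to 0.45). Against the fat pads Mcm2 rose by 0.85 (adjusted p = 0.0282), and Mcm7 missed the threshold at 0.94 (adjusted p = 0.0578). Mcm3 differed from V by 1.15 (adjusted p = 0.201), and the helicase cofactor Cdc45 by -0.061 (adjusted p = 0.961). The other tested Cdc45 probe set was lower in E+P than in V glands, by -1.23 (limma, unadjusted p = 0.018, adjusted p = 0.330). The counts of genes by representative probe set leave it out. The dim members Mcm6, Mcm10, Gins1 and the kinase Cdc7 differed from V by 0.19, 0.55, 0.16 and 0.13.

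In origin licensing, Cdt1, which loads the helicase, read 175, 232, 140.1, 159 and 129 in E+P glands and 99.6, 177, 145 and 152 in E glands. It read 134, 129.7, 116 and 110.1 in P glands, 72.3, 94.4 and 104 in E+P CFP fat pads and 103, 105, 91.6 and 124 in V glands. E+P animals lay above all V and fat pad animals, and Cdt1 rose against the fat pads (0.87 ± 0.20, adjusted p = 0.00747) while the difference from V did not pass (0.63 ± 0.18, adjusted p = 0.147). Cdc6, its loading partner, differed from V by 0.74 (adjusted p = 0.267) and the recognition subunit Orc6 by 0.26 (adjusted p = 0.679). The dim Orc1, Orc2 and Gmnn, which encodes the Cdt1 inhibitor geminin, differed from V by 0.16, 0.088 and 0.66, with overlapping groups. Gmnn was the dim gene that lay higher in every E+P gland than in every fat pad, by 0.95.

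Of the polymerases, Pola1, the catalytic subunit that starts each new strand with primase, read 76.7, 101, 52.5, 44.9 and 58.9 in E+P glands and 34, 62.1, 37.9 and 50.2 in E glands. It read 45.4, 60.6, 46.1 and 57.0 in P glands, 28.7, 31.1 and 33.4 in E+P CFP fat pads and 38.0, 41.2, 30.9 and 39.8 in V glands. All E+P and all P animals lay above every V animal, and Pola1 rose against the fat pads (1.05 ± 0.28, adjusted p = 0.0246). Pole, the catalytic subunit of the leading strand polymerase, read 969, 1054, 1109, 688 and 1016 in E+P glands and 1044, 1028, 1055 and 1217 in E glands. Pole signals were 734, 1145, 1241 and 1189.6 in P glands, 1169.6, 1284 and 1146 in E+P CFP fat pads and 1086, 830.1, 1116 and 1024 in V glands. The fat pads lay above every E+P gland, with a difference of -0.33 ± 0.17 (E+P minus E+P CFP, adjusted p = 0.277) that did not pass. Pold1 and Pold2 of the lagging strand polymerase differed from V by 0.31 and 0.91 (adjusted p = 0.638 and 0.436), and Pola2 by -0.10 (adjusted p = 0.939). The dim primase genes Prim1 and Prim2 and the polymerase subunit gene Pole2 differed from V by 0.46, 0.57 and 0.20.

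In the clamp and its loader 1 of 5 tested genes rose in E+P glands against the fat pads, where 5.24% of all tested probe sets rose. Pcna, the ring that holds the polymerases on DNA, read 348, 743, 332, 273 and 300.4 in E+P glands and 218, 310.0, 315 and 281 in E glands. It read 231, 244, 378 and 301 in P glands, 267, 214 and 309.8 in E+P CFP fat pads and 167, 201, 245 and 277 in V glands. E+P 2 stood far above all other animals, the groups overlapped, and the difference from V did not pass (0.77 ± 0.24, adjusted p = 0.184). Rfc5, a small subunit of the loader, read 120.3, 172, 104, 106 and 129 in E+P glands and 69.4, 102, 96.4 and 106 in E glands. Rfc5 signals were 98.1, 98.2, 69.6 and 103 in P glands, 88.8, 64.5 and 58.7 in E+P CFP fat pads and 72.7, 64.0, 78.5 and 113 in V glands. E+P glands lay above all P glands and all fat pads, and Rfc5 rose against the fat pads (0.83 ± 0.22, adjusted p = 0.0227). Rfc1, Rfc2 and Rfc3 differed from V by 0.16, 0.35 and 0.36 (adjusted p = 0.841, 0.523 and 0.739), and the dim Rfc4 by 0.67.

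Rpa1, the large subunit of the protein that covers single-stranded DNA, read 261, 337, 226, 195 and 208 in E+P glands and 173, 312, 276 and 267 in E glands. It read 232, 221, 141 and 138 in P glands, 181, 246 and 195 in E+P CFP fat pads and 131, 133, 156 and 165 in V glands. Both estrogen groups and the fat pads lay above every V animal, and no Rpa1 difference passed (0.72 ± 0.20, adjusted p = 0.128, for E+P against V). Rpa2 differed from V by 0.76 and Rpa3 by -0.062 (adjusted p = 0.338 and 0.961). In lagging strand maturation, the flap nuclease Fen1 read 68.1, 81.6, 63.5, 62.3 and 49.7 in E+P glands and 45.5, 82.2, 47.3 and 46.9 in E glands. Its signal was 47.0, 56.4, 39.5 and 30.4 in P glands, 30.9, 28.3 and 38.1 in E+P CFP fat pads and 40.6, 37.3, 25.9 and 45.8 in V glands. The E+P animals lay above all V and fat pad animals, and Fen1 rose against the fat pads (1.00 ± 0.29, adjusted p = 0.0355). Lig1, the ligase that joins the fragments, read 152, 225, 119, 83.7 and 114 in E+P glands and 76.9, 147, 105 and 137 in E glands. Lig1 signals were 104, 62.6, 21.0 and 55.7 in P glands, 18.0, 46.4 and 10.5 in E+P CFP fat pads and 75.1, 45.6, 43.3 and 92.3 in V glands. The fat pads lay below every E+P and every E gland, E+P CFP 3 under the floor, and Lig1 rose in E+P glands by 2.54 ± 0.45 against them (adjusted p = 0.000908).

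For entry into S phase, cyclin E1 (Ccne1), the partner of Cdk2, read 151, 211, 96.8, 146 and 159 in E+P glands and 139, 189, 112 and 136 in E glands. It read 172, 147, 113 and 137 in P glands, 122, 134 and 119 in E+P CFP fat pads and 119.8, 101, 154 and 152 in V glands. All 5 groups overlapped, and the difference from V was 0.19 ± 0.20 (adjusted p = 0.805). The dim factor E2f1 differed from V by 0.42, and the representative probe set of the cyclin E2 gene Ccne2 was at or near the floor throughout. The other Ccne2 probe set was bright enough to be tested and differed by -0.21 between E+P and V glands (adjusted p = 0.857) and by -0.39 between E+P glands and E+P CFP fat pads (adjusted p = 0.509).

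**Figure D3:**
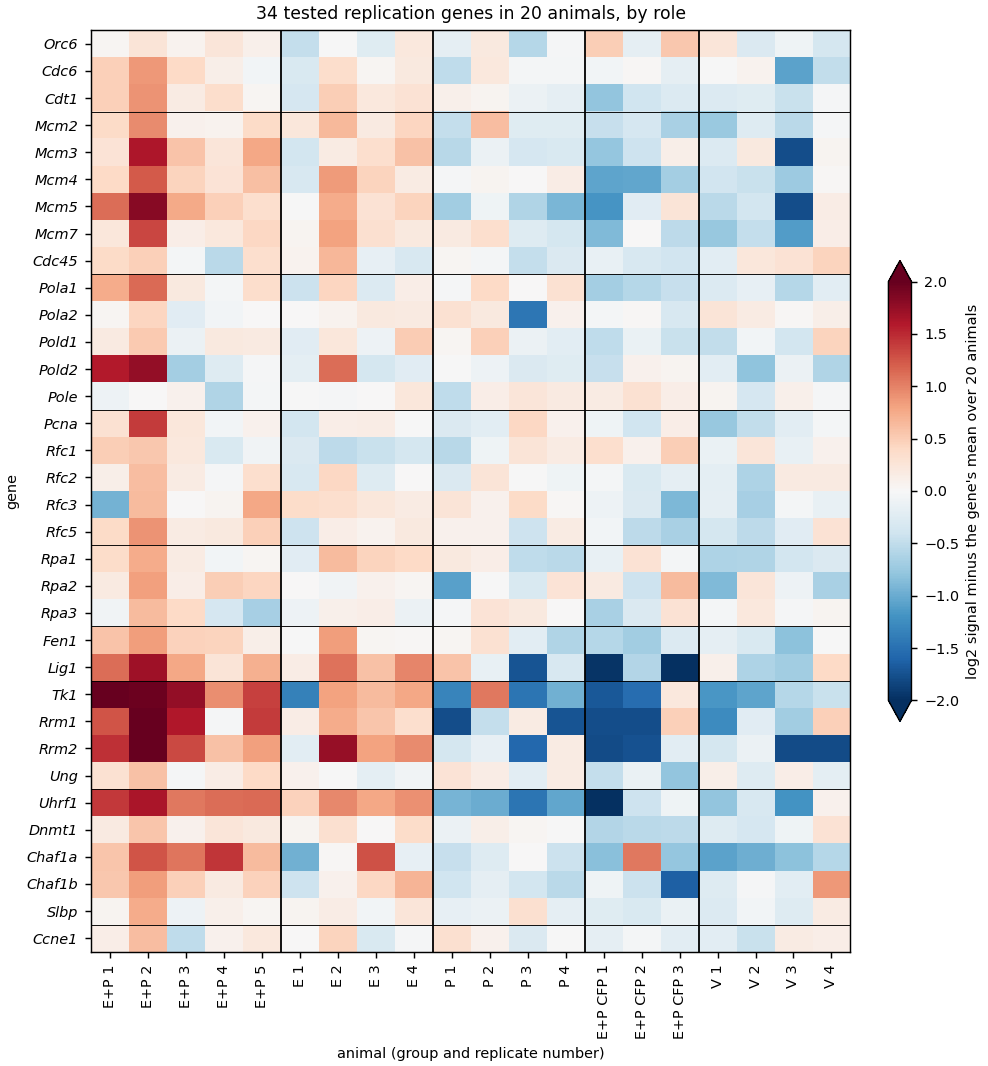
Log2 signal minus the gene's mean over the 20 animals (colour, red above and blue below, saturated beyond 2 log2 units) of the 34 tested genes (rows, lines between roles) in each animal (columns, lines between groups). The column of E+P 2 is the reddest, holding the highest value of 26 of the 34 genes, and the genes Orc6, Rfc1 and Pole do not follow the rest.

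With either hormone alone no member passed the threshold against V glands. In E glands against V glands the count was 0 of 34 by representative probe set, where 0.182% of all tested probe sets passed (limma). Of the 34, 9 were higher and none lower at an unadjusted p under 0.05, against 12.1% of all tested probe sets. Other tested probe sets at that level were higher for Mcm3 (0.56), Mcm5 (0.40) and Tk1 (0.79) and lower for Ccne1 (-1.39) and Ung (-0.38). In 6 of the 12 genes with several tested probe sets these had opposite signs. Uhrf1 (1.33 ± 0.36) and Rpa1 (0.78 ± 0.21) came nearest, with an adjusted p of 0.142 each, followed by Rrm2 (1.83 ± 0.52, adjusted p = 0.160). The E animals lay above all V animals in 4 genes (Mcm2, Rfc3, Rpa1 and Uhrf1), against 3.68% of all tested probe sets, and below them in Rfc1, against 3.84%. The count was 1, Uhrf1, without E+P CFP 1, whose removal changes the shared spread. Over the 49 genes the median difference was 0.27. Lymphocyte marker levels moved with this contrast: the sum was 3711 to 11833 in E glands and 711 to 6347 in V glands. With the mean lymphocyte marker signal as a covariate the median difference was 0.089. A sign of RNA quality moved too: on array type A the Gapdh probe set at the 3′ end exceeded that at the 5′ end by a log2 ratio of 0.30 to 0.78 in E glands and by 0.98 to 1.88 in V glands, with no overlap. With this ratio as a covariate 0 members passed, the median difference was 0.38, and its part in the result was not tested further.

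In P glands against V glands, by representative probe set, none of the 34 passed and none reached an unadjusted p of 0.05, where 0.0% and 8.07% of all tested probe sets did (limma). Other tested probe sets of members reached that unadjusted level without passing. They were those of Mcm10 (1.60, adjusted p = 0.450), Mcm6 (-1.04, adjusted p = 0.512) and Rpa1 (-1.20, adjusted p = 0.584). The median difference over the 49 genes was 0.12. Mcm4 had the smallest adjusted p (0.44 ± 0.23, adjusted p = 0.654), and Uhrf1 had a difference of -0.55 ± 0.36 (adjusted p = 0.735). The P animals lay above all V animals in Pola1, Rfc3 and Chaf1a, against 1.82% of all tested probe sets.

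When estrogen was added to progesterone Uhrf1 was the gene that passed: in E+P against P glands it rose by 2.37 ± 0.34 (adjusted p = 0.00231), the single call among the 34, where 0.277% of all tested probe sets rose. Tk1 (2.29 ± 0.51, adjusted p = 0.0524), Rrm1 (2.31 ± 0.53, adjusted p = 0.0648) and Mcm5 (1.47 ± 0.35, adjusted p = 0.0702) did not pass. At an unadjusted p under 0.05, 16 were higher and none lower, against 11.5% of all tested probe sets. Every E+P animal lay above every P animal in 8 genes (Mcm3, Mcm4, Mcm5, Rfc5, Rrm2, Uhrf1, Chaf1a and Chaf1b), against 2.22% of all tested probe sets. The median difference over the 49 genes was 0.32. The count was 3 without E+P 4 or E+P CFP 3 and 2 without E 1, P 2 or V 3. Tissue makeup moved with this contrast: the luminal sum was 5836 to 9015 in E+P glands against 4291 to 4778 in P glands. The mean centred log2 signal of the luminal markers was 0.55 to 1.19 against 0.12 to 0.33, with no overlap, and its part in the result was not tested.

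Progesterone added to estrogen passed for no member: in E+P against E glands 0 of 34 were called, where 0.143% of all tested probe sets were (limma), and 4 were higher and none lower at an unadjusted p under 0.05, against 9.93% of all tested probe sets. The smallest adjusted p was that of Rfc1 (0.57 ± 0.19, adjusted p = 0.299). Every E+P animal lay above every E animal in Rpa2, Tk1 and Uhrf1, against 2.48% of all tested probe sets, and the Tk1 difference was 1.40 ± 0.51 (adjusted p = 0.335). The median difference over the 49 genes was 0.26. The interaction, the E+P minus E difference less the P minus V difference, was called for 0 of 34, where 0.0737% of all tested probe sets were (limma), and 2 members had an unadjusted p under 0.05, against 11.7% of all tested probe sets. They were Rfc1 (0.65, 95% interval 0.067 to 1.22, adjusted p = 0.374) and Uhrf1 (1.05, 95% interval 0.023 to 2.07, adjusted p = 0.420). Its median over the 49 genes was 0.18, and the interval for Tk1 ran from -0.27 to 2.80 around 1.27. No member passed the adjusted threshold for a response to both hormones that differed from the sum of the single ones. All of these comparisons draw on the same 17 gland animals. Lymphocyte markers and the Gapdh ratio also moved between E+P and E glands, with overlap. The lymphocyte sum was 812 to 4379 in E+P glands and 3711 to 11833 in E glands. The Gapdh log2 ratio on array type A was 0.57 to 1.46 in E+P glands and 0.30 to 0.78 in E glands. Their part in the E+P against E and interaction results was not tested further.

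Members varied together across the 20 animals, and E+P 2 stood highest. The median over the 49 genes of each animal's log2 signal, centred per gene on the mean of the 20 animals, averaged 0.31 ± 0.30 in E+P glands (SD, n = 5), 0.05 ± 0.16 in E glands (n = 4), -0.08 ± 0.10 in P glands (n = 4), -0.27 ± 0.09 in E+P CFP fat pads (n = 3) and -0.17 ± 0.10 in V glands (n = 4). E+P 2 stood at 0.84 and the other E+P animals between 0.11 and 0.27, all above the V animals at -0.23 to -0.03. E+P 2 was the highest of all 20 animals in 36 of the 49 genes and the highest of the E+P animals in 41. Its mean centred log2 signal of luminal markers was 1.19, the highest of the E+P range of 0.55 to 1.19, and that of lymphocyte markers 0.79, against -1.40 to 0.71 in the other E+P animals; their part was not tested. The median correlation between pairs of the 34 tested genes was 0.47 over the 20 animals (561 pairs) and 0.32 after taking out the group means. Without E+P 2 these medians were 0.34 over 19 animals and 0.20 after taking out the group means. These pairs share the animals, the arrays and their scaling. Each tested gene was also set against the mean of the other tested ones. Cdt1 (r = 0.92), Mcm4 and Mcm5 (0.89 each) and Mcm7 (0.87) followed it most closely, and Orc6 (0.15), Rfc1 (0.03) and Pole (-0.17) least. Genes outside the lists whose representative probe sets followed the members' mean most closely, of 10716 ranked over the 20 animals, were Tubb5 (r = 0.95), Pclaf (0.94), Cks2 (0.91), Kif22 (0.89) and H2ax (0.88). Pclaf encodes a protein that binds Pcna, Cks2 a subunit of cyclin-dependent kinases, Tubb5 a beta tubulin, Kif22 a kinesin of the mitotic spindle and H2ax a histone variant.

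**Figure D4:**
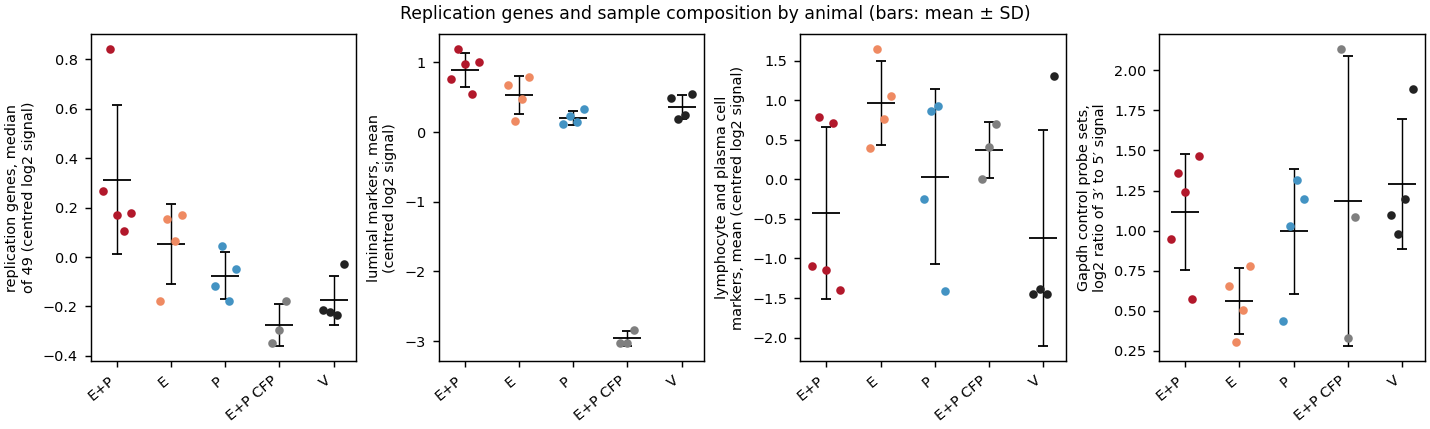
One value per animal (points) by group (x axis) with mean and SD as bars: the median centred log2 signal of the 49 genes, the mean centred log2 signal of luminal and of lymphocyte and plasma cell markers, and, on array type A, the log2 of the 3′ over the 5′ Gapdh control signal. E+P 2 stands alone at 0.84 in the first panel, and V 4 at 1.30 stands apart from the other V animals in the third.

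Several genes had more than 1 probe set, and these did not always go the same way. Of the 49 genes, 23 had 1 probe set and 26 several, and in 12 genes several were tested. For E+P against V, 5 of the 12 had tested probe sets of opposite sign (Rpa1, Tk1, Rrm1, Ung and Ccne1), and for E+P against E+P CFP 3 did (Cdc45, Tk1 and Rrm1). The 4 other tested Tk1 probe sets differed between E+P and V glands by 0.81 (adjusted p = 0.375), 0.45, 0.00056 and -0.51, none past the threshold, so the Tk1 result rests on 1 of 5 tested probe sets. In E+P glands against E+P CFP fat pads the same 4 differed, in the same order, by 0.57 (adjusted p = 0.428), -0.42, 0.40 and -0.70, again none past the threshold. The other tested Mcm5 probe set differed by 0.22 in both comparisons (adjusted p = 0.716 against V and 0.558 against the fat pads), so the Mcm5 call against the fat pads rests on 1 of 2. The other tested Rrm1 probe set differed by -0.35 between E+P and V glands (adjusted p = 0.880), against 1.78 for the one named above. Between E+P glands and E+P CFP fat pads it differed by -0.49 (adjusted p = 0.690), against 2.38. The other tested Uhrf1 probe set differed by 0.60 between E+P and V glands and by 1.67 between E+P glands and E+P CFP fat pads (adjusted p = 0.128). In E+P glands against E+P CFP fat pads another probe set also rose for Cdt1 (1.88, adjusted p = 0.0417) and Ung (0.51, adjusted p = 0.0327), and probe sets of Mcm3 (0.77, adjusted p = 0.0240) and Pold1 (1.85, adjusted p = 0.0223) rose although the representative ones did not pass. Of the 15 genes with a dim representative, 6 had another tested probe set and 9 had none. These other probe sets differed between E+P and V glands by -0.01 and 0.27 for Mcm6, 0.18 and 1.58 for Mcm10, -0.07 and -0.48 for Gins1, 0.43 for Dut, 0.14 for E2f1 and -0.21 for Ccne2. The lowest adjusted p among them was 0.247, for the Mcm10 probe set at 1.58, and none passed in either E+P against V or E+P against E+P CFP.

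Other genes of the pathway were read from lists of related function, each gene by 1 probe set. Among all tested probe sets, 0.251% rose and 0.464% moved in either direction in E+P against V glands. The shares against the fat pads were 5.24% and 7.9%, and in E against V glands 0.182% moved in either direction. Of 21 tested other replication factors none passed in E+P against V glands, with a median difference of 0.19 over the 30 on the arrays. The 4 with the smallest adjusted p were the topoisomerase Top2a (1.80 ± 0.50, adjusted p = 0.131), the RNase H2 subunits Rnaseh2a (0.84 ± 0.26, adjusted p = 0.173) and Rnaseh2b (0.52 ± 0.19, adjusted p = 0.277), and the checkpoint adaptor Clspn (0.90 ± 0.30, adjusted p = 0.219). Against the fat pads 4 rose and none fell (Pold3, Wdhd1, Top2a and Rnaseh2b, by 0.56, 0.97, 2.04 and 1.02). Of 23 tested G1 and S phase regulators none passed against V, with Tfdp1, the partner of E2F factors, nearest (0.66 ± 0.15, adjusted p = 0.0575), then Cks1b, Myc and Cdk4 (0.50, 1.11 and 0.53). Against the fat pads 6 of them rose (Ccnd1, Ccna2, Cdk4, Cdk6, Rbl1 and Myc, by 1.59, 1.36, 0.82, 0.69, 0.78 and 2.14) and 2 fell (Ccnd2 by 1.41 and Cdkn2c by 0.94). Of 13 tested genes of other nucleotide synthesis none passed against V, with Shmt1, an enzyme of folate metabolism, at 0.85, and Shmt1 rose against the fat pads by 1.22. Of 9 tested other histone and chromatin genes none passed against V, the closest being Hmgb2 at 0.99, and the methyltransferase Ezh2 rose against the fat pads by 0.93. The list of mitosis genes differed in its count: 9 of 22 tested rose and none fell against V, with the mitotic kinase Pbk (2.98 ± 0.32, adjusted p = 3.57e-05), the tubulin-binding Stmn1 (1.84 ± 0.29, adjusted p = 0.00506), the survivin gene Birc5 (2.08 ± 0.34, adjusted p = 0.00593) and the mitotic kinase Cdk1 (2.58 ± 0.44, adjusted p = 0.00782) at the smallest adjusted p. The median difference of that list from V was 1.09, against 0.55 for the 49 replication genes, and no test was made of the difference between the lists. Pbk also rose in E against V glands (2.24, adjusted p = 0.00743), where no replication gene passed.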

How the data were processed

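Total RNA (2 µg per animal) was labelled and hybridised to Affymetrix arrays of the types A, B and C of the MG-U74 set, per the labels' protocols. The deposited values are signal intensities on a linear scale made by the authors with MAS5, per the submitters' processing notes, with settings not given in the sources used here. Array type, group and replicate number joined 60 arrays into 20 animals, which touches Gins1, Pole and Tyms, read on types B and C. Each array was scaled here to the 2% trimmed mean common to its type, floored at that type's 25th percentile (13.6, 28.6 and 19.8 signal units) and turned to log2. Probe sets above the 50th percentile in at least 3 animals were tested. Group means over all 20 animals were compared in limma 3.58.1 under R 4.3.3 with empirical Bayes and an intensity trend, and Benjamini-Hochberg adjustment over 23067 probe sets. The fit was tried on simulated data of array type A for E+P against V only, with independent noise and changes in brighter probe sets. Dim probe sets, array types B and C and tissue makeup were not covered. A gene was represented by 1 probe set, taking A before B before C, then no special suffix, then the highest mean. Values per animal are given for the 15 genes past the threshold in any comparison and for the brightest gene of each role, and 4 genes are named per other list. The members and all lists were chosen with earlier results of these data known. Alternatives changed the scaling, floor, filter, variance model, array weights, groups in the fit, replicate block, probe set, covariates and animals. The labels record no batch or date.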

Additional observations from a re-analysis of the deposited data

Results flagged for a closer look

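In 80 groups of 4 or 5 animals, made of the member median and the members given by animal, 9 had an animal far from the others by Dixon's test, where chance gives about 1 in 20. The member median, in centred log2 signal, was 0.8407 in E+P 2, with the other E+P animals at 0.1064 to 0.2661. It was -0.027 in V 4, with the other V animals at -0.2336 to -0.2163. In log2 signal, Tk1 was 4.8679 in E 1, with the other E animals at 6.8455 to 7.0179. Rfc5 was 6.121 in P 3, with the others at 6.6162 to 6.6851, and Fen1 was 6.3611 in E 2, with the others at 5.5078 to 5.5638. Pole stood apart in 3 groups, at 9.4257 in E+P 4 with the others at 9.9208 to 10.1151, at 10.2491 in E 4 with the others at 10.0062 to 10.0432, and at 9.5196 in P 1 with the others at 10.1618 to 10.2776. Pcna was 9.5365 in E+P 2, with the other E+P animals at 8.0938 to 8.4446. V 4 also had the highest lymphocyte and plasma cell marker signal of the V animals (1.30 against -1.45 to -1.38) and E 1 the highest skeletal muscle sum of the E animals (6535), and their part was not tested.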

How the results depend on the processing

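Counts below are member genes past the threshold. For E+P against V (4), the count was 0 with no filter, 2 with a 75th percentile filter (8 members tested), 2 without an intensity trend, 2 with only the compared groups in the fit and 1 with the replicate block. For E+P against E+P CFP (15), it was 8 with median scaling, 9 with quantile normalization and 3 with the 75th percentile filter. For E+P against P (1), it was 3 with quantile normalization, 4 with a floor at the 40th percentile, 2 with an offset of 32, 2 with a filter on the mean, 0 with the 75th percentile filter, 2 with array weights, 4 with the lymphocyte covariate and 2 without V 4, E 1 and E+P CFP 1 together. For E against V (0), it was 1 with the floor at the 40th percentile, 2 with array weights and 1 without those 3 animals, and for E+P CFP against V (0) it was 1 with the lymphocyte covariate. Median differences moved to 0.80 for E+P against E+P CFP with a floor at the 10th percentile, to 0.0 for E+P CFP against V with a floor at the 40th percentile or without those 3 animals, to 0.45 for E against V without those animals, and with the lymphocyte covariate to 0.089 for E against V and 0.0 for P against V. Rrm1 turned to -0.49 in E+P against E+P CFP (adjusted p = 0.690) when its brightest probe set was used. That choice also ended the calls of Tk1 in E+P against V (0.81, adjusted p = 0.375) and of Tk1 (0.57, adjusted p = 0.428) and Mcm5 (0.22, adjusted p = 0.558) in E+P against E+P CFP, where the counts were 3 and 13. Except for the filters and the animals left out, which change what is tested, the cause was not tested.

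Leaving out 1 animal at a time gave 0 to 5 members for E+P against V, 9 to 17 for E+P against E+P CFP, 1 to 3 for E+P against P, 0 to 1 for E against V and for E+P CFP against V, and 0 in every case for the interaction, E+P against E, and P against V. The median differences then ran from 0.27 to 0.64, 0.41 to 0.64, 0.18 to 0.43, 0.19 to 0.37 and -0.11 to -0.040 in the first 5 of these, and from 0.023 to 0.21, 0.15 to 0.35 and 0.050 to 0.18 in the last 3. Dnmt1 in E+P against E+P CFP passed in all 18 other settings and all 20 omissions, and Uhrf1 in E+P against P in 17 and 20. The calls in E+P against V held less often: Uhrf1 in 16 and 18, Tk1 in 14 and 13, Rrm2 in 12 and 11 and Mcm4 in 9 and 4. Over all tested probe sets, E+P CFP against V had 22.2% of its calls higher, and 32.6% with median scaling. Replicate numbers do not pair the animals by any label: of 36 same-number pairs 10 correlated above 0.1 (range -0.33 to 0.22), and 2 of 4 E+P animals correlated best with their own number in V. With the replicate block the count for E+P against E+P CFP was 14. Dim probe sets measure differences less well, and with 3 to 5 animals a group no read depth or interval from counts applies.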
